A study of Homo sapiens with 60 samples.

Results

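The genes described here are the nuclear genes for subunits of the mitochondrial respiratory chain and ATP synthase, measured as RNA in HT29, a human colorectal adenocarcinoma cell line. They were taken as the protein-coding nuclear genes of the deposited table whose symbol starts with NDUFA, NDUFB, NDUFC, NDUFS, NDUFV, SDH followed by A to D, UQCR, COX4 to COX8 or ATP5, with a mean of at least 1 CPM (a counts-per-million value). Of 303 rows with such a symbol, 102 were protein-coding and 94 reached that mean, out of 60675 genes in the table. By complex, the 94 comprised 37 genes of complex I, 4 of complex II, 9 of complex III, 13 of complex IV, 19 of complex V (ATP synthase) and 12 assembly factors (NDUFAF1 to NDUFAF8 and SDHAF1 to SDHAF4) whose symbols share the prefixes without the proteins being subunits. NDUFA4 and NDUFA4L2 were counted with complex IV, in which the NDUFA4 protein is now placed. The 19 genes of complex V include ATP5MF-PTCD1 (mean 8.56 CPM), a locus that overlaps ATP5MF and joins its name with that of PTCD1. All 94 passed the filter on low counts.

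RNA-seq was made from 60 libraries in 20 groups of 3, all after 24 h of treatment. The groups were a vehicle control with 0.1% DMSO per the sample labels (the series text gives 2%), wortmannin at 10 µM, and water extracts of 6 medicinal plants at a high, a medium and a low dose. The labels of the wortmannin and extract groups give no DMSO percentage, so these groups may also differ from vehicle in solvent. Zingiberis Rhizoma Recens (fresh ginger), Zingiberis Rhizoma (ginger), Pinelliae Tuber, Scutellariae Radix and Zizyphi Fructus were given at 500, 100 and 20 µg/mL, and Coptidis Rhizoma at 290, 58 and 11.6 µg/mL. Wortmannin, an inhibitor of phosphoinositide 3-kinases, is the series' positive control.

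The respiratory chain sits in the inner mitochondrial membrane. Complexes I and II pass electrons from NADH and succinate to ubiquinone, complex III passes them on to cytochrome c, and complex IV to oxygen, while ATP synthase uses the proton gradient built by complexes I, III and IV. Mitochondrial DNA (mtDNA) encodes a small set of core subunits of complexes I, III, IV and V, and all the other subunits, including the whole of complex II, come from nuclear genes. In normal colon epithelium the chain is fed largely by butyrate, and many colorectal cancer lines rely more on glucose.

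Libraries held 11.1 M to 34.4 M counts (median 23.4 M). Of 12 markers of colon epithelium, all were detected in every library, with EPCAM at 449 to 664 CPM and LGALS4 at 494 to 812 CPM, but the intestinal factors CDX1 and CDX2 and CEACAM5 had low medians of 1.1, 5.9 and 6.6 CPM. Of 10 markers of other cells, MS4A1 and PDGFRA were at 0 in all 60 libraries, and CD68 (median 7.9 CPM), PECAM1 (1.7 CPM) and COL1A1 (1.2 CPM) were at 0 in none. Whether libraries of a group come from separate cultures is not stated, so p-values measure only the spread between these libraries. In these bulk libraries, fewer cells and less RNA per cell cannot be told apart. The vehicle libraries carry a code of their own, as do the wortmannin libraries, so that code and treatment cannot be told apart in comparisons with vehicle, whereas the doses of an extract share a code.

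Together the 94 genes took 0.786% to 0.985% of all counts as group means. The vehicle libraries held 1.06%, 0.923% and 0.890%, and the wortmannin libraries 0.780% to 0.790%. Within groups, 4 libraries stood apart in the series and had the highest shares of these genes: the third library of Zizyphi Fructus high (1.24%), the first of vehicle (1.06%), the second of Zingiberis Rhizoma high (1.02%) and the first of Zingiberis Rhizoma Recens low (1.00%). In the first of these, 92 of the 94 genes lay above their median over the 60 libraries, and in the vehicle library 91 did. The same 4 libraries were each the highest of their own group in cytosolic ribosomal protein transcripts. These took 8.23% of counts in the Zizyphi library, 6.92% in the vehicle library, 6.32% in the Zingiberis Rhizoma library and 6.35% in the Zingiberis Rhizoma Recens library. Group means were 5.11% to 6.73%, and the Coptidis Rhizoma high libraries, at 7.24%, 6.43% and 6.51%, lay above the 2 ginger libraries. The part of the 4 libraries in each result was not tested, and values without them are given beside the results that they moved most.

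**Figure D1:**
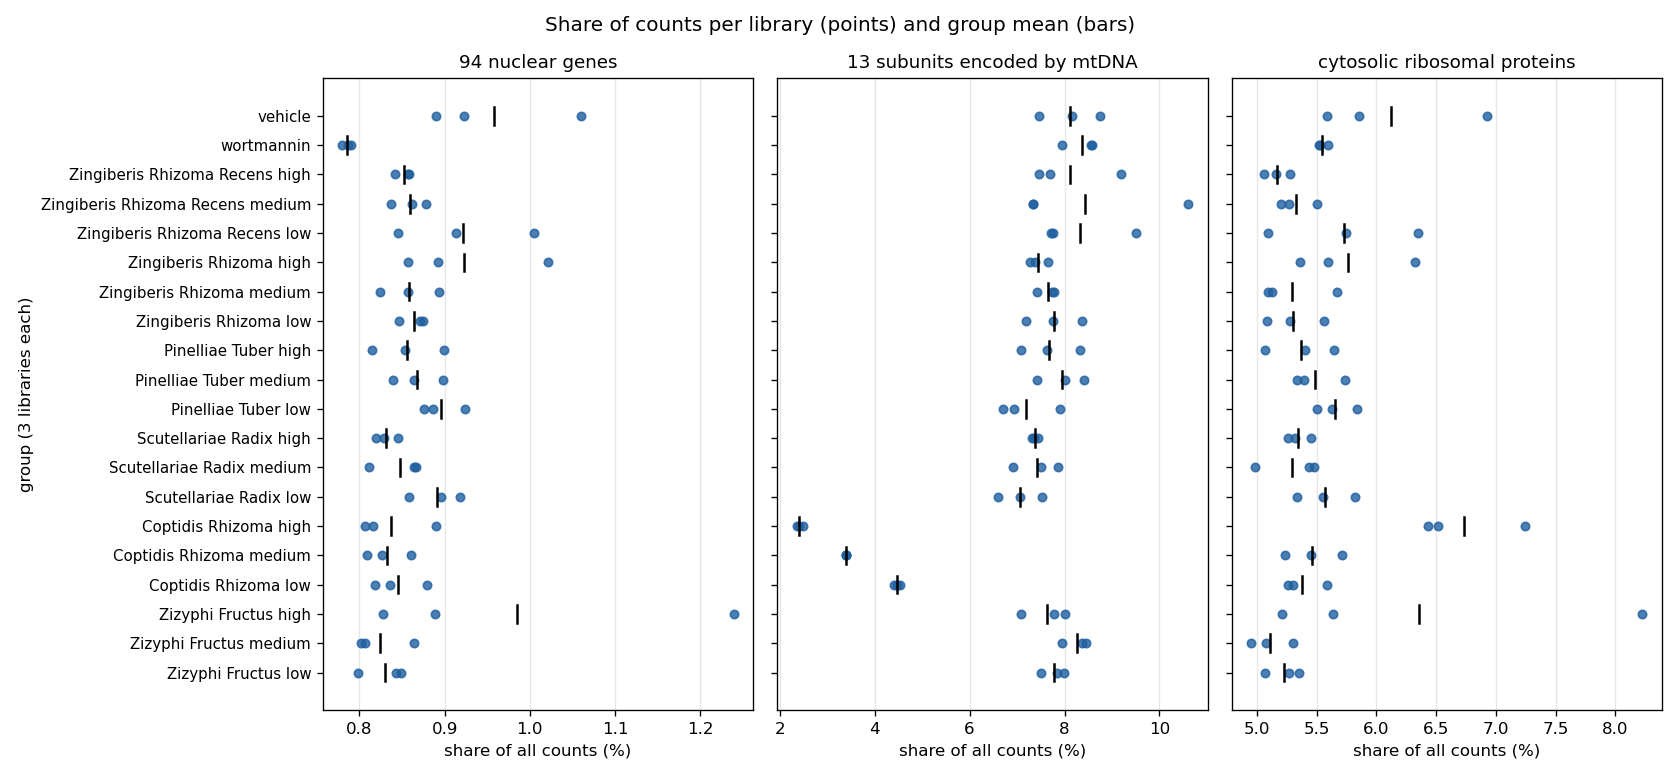
Share of all counts (%) per library (points) and group mean (bars) in the 20 groups, for the 94 nuclear genes, for the 13 subunits encoded by mtDNA and for cytosolic ribosomal protein genes. The third Zizyphi Fructus high library stands at 1.24% for the nuclear genes and 8.23% for ribosomal proteins, and the mtDNA share falls from 4.47% to 2.41% between the low and high Coptidis Rhizoma doses.

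The most abundant member in CPM was ATP5F1B, the catalytic beta subunit of ATP synthase, at a mean of 552 CPM. Per kilobase of annotated exon, COX8A, a small complex IV subunit, led at 451 CPM per kb, followed by COX6B1 at 249 and ATP5F1B at 238 CPM per kb. NDUFA4L2, the hypoxia-inducible relative of NDUFA4, was lowest at 0.447 CPM per kb. It was also the member nearest above the limit, at a mean of 1.25 CPM after scaling, and COX6B2, a testis form, was the nearest below at 0.396 CPM. Of the tissue-specific forms of complex IV, COX4I2, COX6A2, COX7B2 and COX8C had no count in any library and COX7A1 averaged 0.123 CPM, so complex IV was represented by the widely expressed forms COX4I1, COX6A1, COX6B1, COX7A2, COX7B and COX8A.

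Coptidis Rhizoma was the extract with the most genes called between doses. From the low to the high dose, 20 of the 94 genes changed, 15 lower and 5 higher, by edgeR's quasi-likelihood test at a Benjamini-Hochberg adjusted p under 0.05 over all 16608 genes tested. Over all genes, 52.4% were called in this comparison, 25.3% lower and 27.1% higher, and over the members 21.3% were. Libraries of both doses did not overlap for 43 members, against 61.4% of all genes. The median log2 change was -0.09 over the 94 members and 0.00 over all genes, and by complex it was -0.03 for I, -0.09 for II, -0.16 for III, 0.04 for IV, -0.12 for V and -0.13 for the assembly factors. The fit pools the spread over all groups, and without the 4 libraries that stand apart, none of which is in this comparison, 48 members were called (33 lower, 15 higher) where 57.3% of all genes were. The same number was called when only the 6 libraries compared were fitted.

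**Figure D2:**
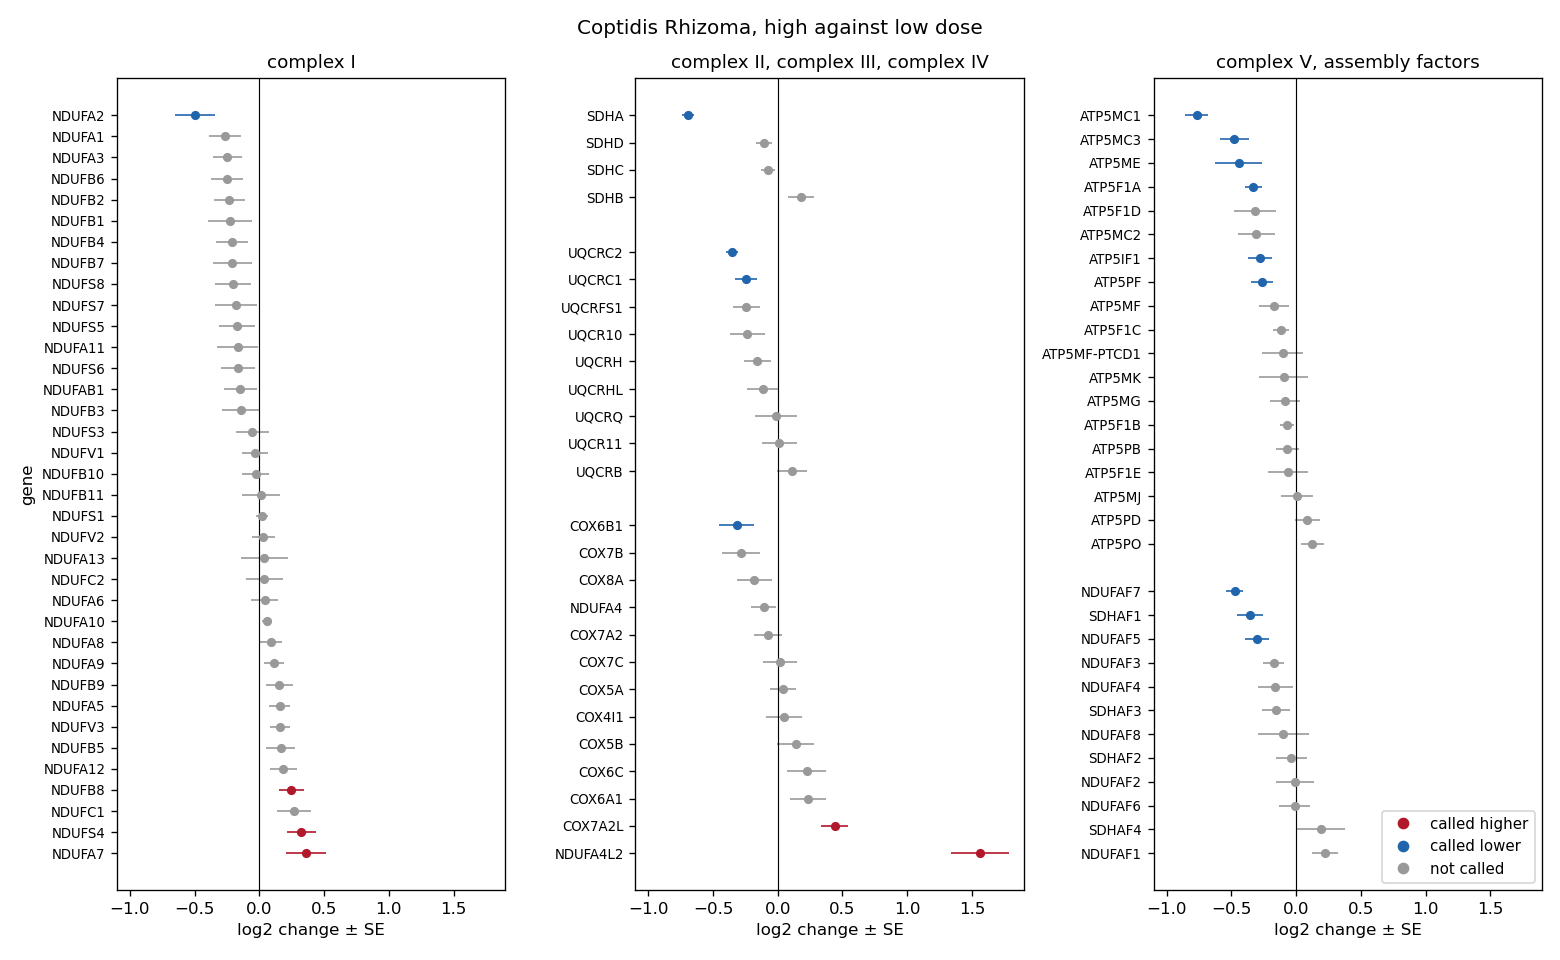
Log2 change with its standard error for genes of the set between the high and the low dose of Coptidis Rhizoma, by complex, with genes called lower in blue, the 5 called higher in red and those not called in grey. ATP5MC1 and SDHA lie farthest to the left at -0.77 and -0.69, and NDUFA4L2 farthest to the right at 1.56.

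In complex I, 2 genes fell and 3 rose. The accessory subunit NDUFA2 stood at 39.4, 43.0 and 36.5 CPM and then at 29.7, 28.1 and 26.6 CPM, with a log2 change of -0.50 (SE 0.16, adjusted p = 0.00719). For NDUFA2 every high-dose library lay under every low-dose library. The accessory subunit NDUFS4, part of the NADH-oxidising module, rose from 28.0 ± 2.4 to 35.2 ± 2.2 CPM (SD, n = 3), and NDUFB8, of the membrane arm, from 51.2 ± 1.9 to 60.7 ± 3.5 CPM, with log2 changes of 0.32 and 0.25 (adjusted p = 0.0127 and 0.0287). The NDUFS4 call was lost without the first high-dose or the third low-dose library, and that of NDUFB8 without the first library of either dose (adjusted p up to 0.122). NDUFA7 was called higher as well (0.36, adjusted p = 0.0436), with libraries that overlapped, and lost its call without the first or the second high-dose or the first or the third low-dose library (adjusted p up to 0.225).

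Complex II held the member with the smallest p in this comparison. SDHA, the flavoprotein that oxidises succinate, stood at 269, 269 and 270 CPM at the low dose, at 256, 263 and 247 CPM at the medium dose and at 167, 167 and 166 CPM at the high dose. Its 3 high-dose libraries lay below the libraries of every other group of the series, in which SDHA did not drop under 236 CPM. The log2 change from low to high was -0.69 (SE 0.048, adjusted p = 1.16e-17), a level 1.61-fold lower. SDHA has copies elsewhere in the genome from which the deposited counting may not fully separate it, and of these SDHAP1 (mean 10.5 CPM) had a log2 change of -0.40 and SDHAP4 (mean 19.6 CPM) of -0.65. The partner subunits SDHB, SDHC and SDHD did not pass the test. SDHB, which carries the iron-sulphur clusters, stood higher in each high-dose library (80.0 to 84.6 CPM) than in each low-dose library (69.4 to 77.6 CPM), with a log2 difference of 0.18 (adjusted p = 0.128) that passed when only the libraries compared were fitted (0.0135).

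In complex III the 2 large core proteins fell. UQCRC2 stood at 166, 166 and 159 CPM at the low dose and at 129, 127 and 130 CPM at the high dose, with a log2 change of -0.35 (SE 0.046, adjusted p = 6.33e-09), and UQCRC1 had a change of -0.25 (SE 0.083, adjusted p = 0.0113, and 0.0563 without the third high-dose library). The Rieske iron-sulphur protein UQCRFS1 had a difference of -0.24 that did not pass (adjusted p = 0.0543) but did by DESeq2 (0.0366) and without the first high-dose library (0.0168), and none of the other 6 genes was called. UQCRHL is a retrocopy of UQCRH, so the division of reads between them is uncertain.

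Complex IV had 1 gene lower and 2 higher among its 13. The lower gene was COX6B1, which lies between the monomers of the dimer, with a log2 change of -0.32 (SE 0.13, adjusted p = 0.0435). COX6B1 lost its call without the first or the second low-dose or the second or the third high-dose library (adjusted p up to 0.193). COX7A2L, a COX7A relative that joins complexes III and IV in supercomplexes, stood at 69.4, 75.2 and 72.1 CPM at the low dose, at 71.5, 74.2 and 65.6 CPM at the medium dose and at 102, 97.6 and 94.6 CPM at the high dose. Its log2 change was 0.44 (SE 0.10, adjusted p = 3.97e-04), with no overlap. NDUFA4L2 stood at 0.856, 1.13 and 1.31 CPM, then at 1.09, 0.904 and 1.43 CPM, and at the high dose at 3.86, 3.03 and 2.89 CPM. It rose 2.95-fold (log2 1.56, SE 0.22, adjusted p = 5.35e-08), from the lowest level of all members, and its paralogue NDUFA4 did not pass the test (125 CPM in each of the 3 high-dose libraries, 121 to 142 CPM in the low-dose libraries).

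ATP synthase held the largest fall. ATP5MC1, ATP5MC2 and ATP5MC3 encode the same mature c subunit of the membrane rotor with different import signals. ATP5MC1 stood at 53.6, 58.6 and 49.5 CPM at the low dose, at 58.2, 58.5 and 56.8 CPM at the medium dose and at 35.4, 30.2 and 29.7 CPM at the high dose. The log2 change was -0.77 (SE 0.088, adjusted p = 1.93e-10), or 1.70-fold lower, and the groups did not overlap. ATP5MC3 had a change of -0.48 (SE 0.11, adjusted p = 3.39e-04), and ATP5MC2 a difference of -0.31 that did not pass although its high-dose libraries (171 to 182 CPM) all lay below the low-dose ones (215 to 221 CPM). By DESeq2 (adjusted p = 0.0424) and when only the libraries compared were fitted (7.88e-06), ATP5MC2 passed. Of the F1 head, only the alpha subunit ATP5F1A was called (-0.33, SE 0.062, adjusted p = 1.35e-05). ATP5PF of the stalk (-0.27), the inhibitor ATP5IF1 (-0.28) and the membrane subunit ATP5ME (-0.44, adjusted p = 0.0369, lost without the first or the second low-dose or the second or the third high-dose library) completed the 6 calls among 19 genes, and no gene of this complex was called higher. ATP5PF lost its call without the second low-dose library (adjusted p = 0.0646), and ATP5IF1 without the second high-dose library (0.107).

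Among the assembly factors 3 of 12 were called, all lower. NDUFAF7, a methyltransferase needed for complex I assembly, stood at 19.4, 22.9 and 22.3 CPM at the low dose and at 15.6, 14.3 and 16.6 CPM at the high dose (log2 change -0.48, SE 0.064, adjusted p = 1.39e-08). NDUFAF5, which hydroxylates another complex I subunit, and SDHAF1, needed to put iron-sulphur clusters into SDHB, had changes of -0.31 and -0.36 (adjusted p = 0.00499 and 0.00235). In each of the 3 genes the doses did not overlap.

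Between the low and the medium dose of Coptidis Rhizoma no member was called by edgeR (none at an unadjusted p under 0.05, none by DESeq2), where 1.30% of all genes were. For SDHA, ATP5MC1, COX7A2L and NDUFA4L2 the high-dose libraries stood apart from the low and the medium ones, and the step from medium to high was not tested. The subunits encoded by mtDNA had the following levels. Their summed share of counts was 4.47% ± 0.061 at the low, 3.39% ± 0.0019 at the medium and 2.41% ± 0.064 at the high dose (SD, n = 3), against 8.12% ± 0.64 in vehicle and 7.07% to 8.43% as group means of the other extracts and wortmannin, and the share of the 94 nuclear genes was 0.845% ± 0.031, 0.832% ± 0.027 and 0.837% ± 0.046. From low to high, 8 of the 13 fell and none rose, with MT-ND5 (-3.11), MT-ND6 (-2.30), MT-ND2 (-2.05) and MT-ND1 (-1.98) of complex I in front, while MT-CO3, MT-ATP6, MT-ATP8, MT-ND4 and MT-CO2 did not pass. The high dose was also the group with the highest share of ribosomal protein counts (6.73% ± 0.45, against 5.38% ± 0.18 at the low dose). Of 81 ribosomal protein genes tested 30 rose and 1 fell, where 27.1% of all genes rose and 25.3% fell, and their part in the results above was not tested.

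**Figure D3:**
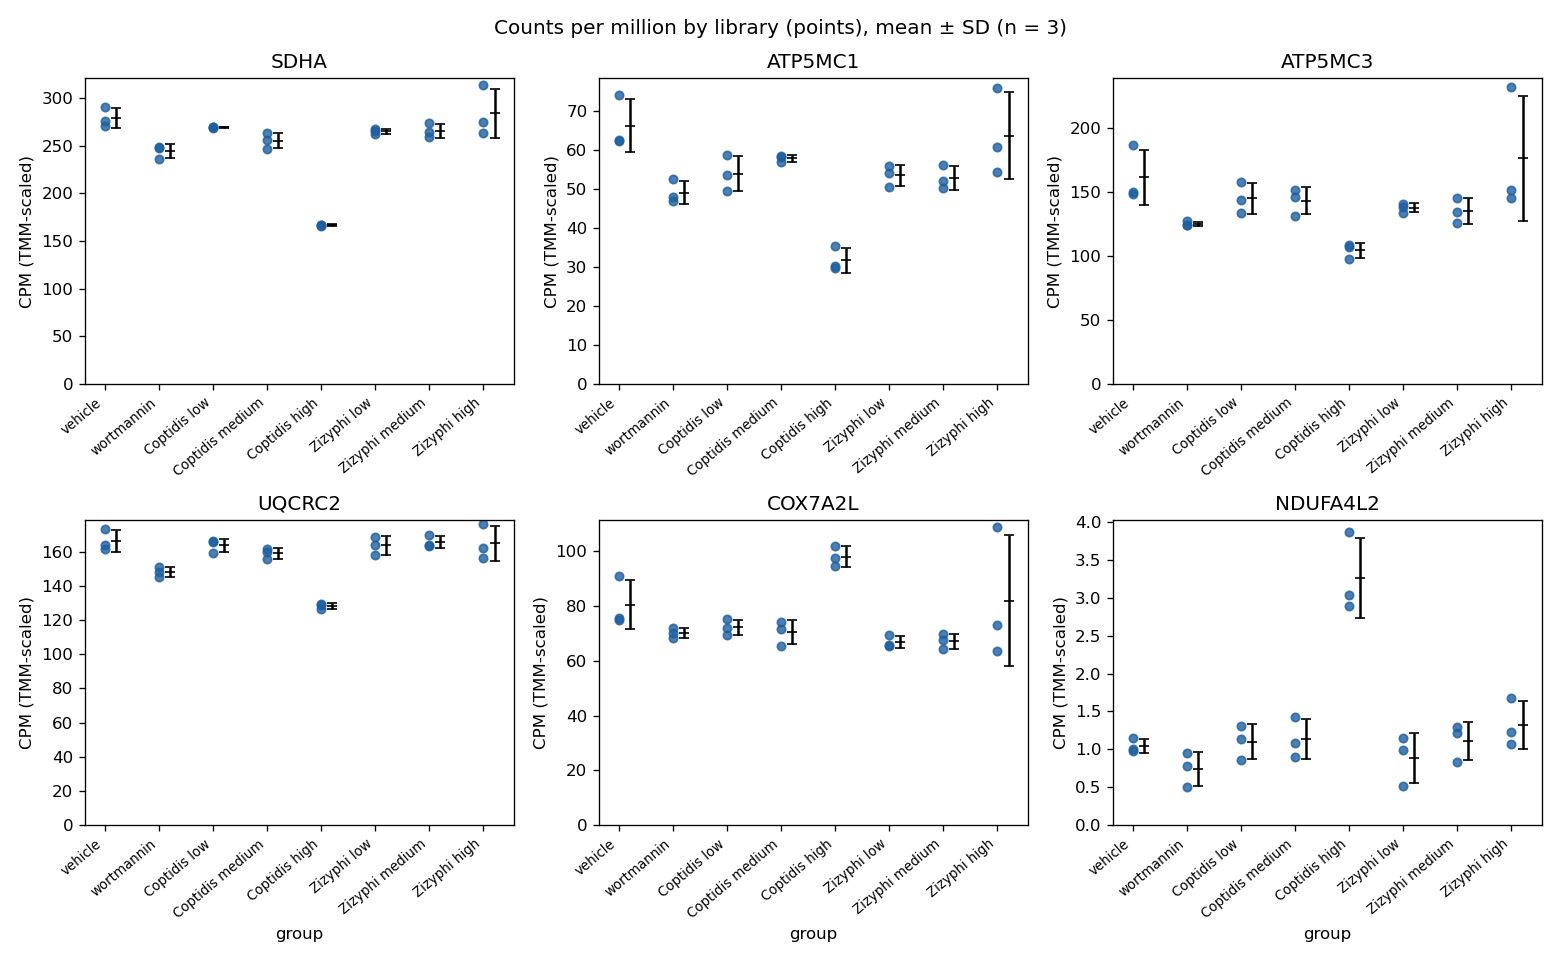
CPM after scaling in each library (points), with mean and SD (n = 3) beside them, for SDHA, ATP5MC1, ATP5MC3, UQCRC2, COX7A2L and NDUFA4L2 in vehicle, wortmannin and the doses of Coptidis Rhizoma and Zizyphi Fructus. The low and medium Coptidis libraries lie together and the 3 high-dose libraries apart, such as 167, 167 and 166 CPM for SDHA against 247 or more, and the third Zizyphi high library is above its group in each panel.

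Nuclear respiratory genes are classically described as targets of NRF1, of the ETS factor GABP and of YY1. Promoters are shown for SDHA and ATP5MC1, which fell between the Coptidis doses, and for COX7A2L, which rose. RefSeq promoter entries (GRCh38.p14) from 250 bases before to 50 after the start matched 77 of the 94 members. Matches on either strand were counted for NRF1 (GCGCA and GCGC with any base between them), ETS factors (CCGGAAG), YY1 (AAGATGGC), CREB (TGACGTCA) and NF-Y (CCAAT), none of which holds another. The NRF1 letters were in 19 members (24.7%), against 6.28% of all 27305 promoters and 11.5% of the 10409 promoters of protein-coding genes tested here. The ETS letters were in 29.9% (10.7% and 19.3%), YY1 in 14.3% (3.03% and 5.33%), CREB in 6.49% (1.98% and 3.22%) and NF-Y in 32.5% (35.7% and 36.8%). Of the 17 members with an entry that were called between the Coptidis doses, 4 held NRF1, 3 ETS, 4 YY1, 2 CREB and 8 NF-Y letters. The 250 bases before the start are printed 5′ to 3′ on the gene's strand, with these matches in capitals, for SDHA (chr5:218070-218319, plus strand), ATP5MC1 (chr17:48892537-48892786, plus strand) and COX7A2L (chr2:42361218-42361467, minus strand).
SDHA: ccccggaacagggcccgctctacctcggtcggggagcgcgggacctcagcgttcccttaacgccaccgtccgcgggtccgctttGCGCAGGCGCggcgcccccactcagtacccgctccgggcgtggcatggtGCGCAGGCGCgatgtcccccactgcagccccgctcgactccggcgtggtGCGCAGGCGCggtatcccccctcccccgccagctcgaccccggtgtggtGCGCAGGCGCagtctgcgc
ATP5MC1: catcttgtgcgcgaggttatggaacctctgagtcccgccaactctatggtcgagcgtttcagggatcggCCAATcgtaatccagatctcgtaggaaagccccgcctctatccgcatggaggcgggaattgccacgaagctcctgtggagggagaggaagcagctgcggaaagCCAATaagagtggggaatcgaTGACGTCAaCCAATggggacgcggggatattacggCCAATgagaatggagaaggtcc
COX7A2L: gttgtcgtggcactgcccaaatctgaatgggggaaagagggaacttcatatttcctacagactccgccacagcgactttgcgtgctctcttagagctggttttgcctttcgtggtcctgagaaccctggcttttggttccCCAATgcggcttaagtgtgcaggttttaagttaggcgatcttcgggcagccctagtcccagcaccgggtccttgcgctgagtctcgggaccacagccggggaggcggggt
SDHA has 4 NRF1 matches in this stretch and none of the other motifs. ATP5MC1 has no NRF1, ETS or YY1 match but 1 CREB and 4 NF-Y matches, and COX7A2L has a single NF-Y match. A match of letters is no measurement of binding.

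The genes that work around the chain were read from lists of other assembly factors, electron carriers and their synthesis, the citric acid cycle with pyruvate dehydrogenase, and transcriptional control. Between the Coptidis doses 25.3% of all genes were called lower and 27.1% higher. From the low to the high Coptidis dose 15 of 39 other assembly factors fell and 6 rose (median log2 change -0.14, all genes 0.00), among them COX18 (-0.69), which inserts a complex IV subunit into the membrane, TTC19 (-0.44), a complex III factor, and COX19 (0.78), a copper chaperone. Of 16 genes for carriers 5 fell and 2 rose, with PDSS1 (-0.68), which starts the tail of ubiquinone, COQ8A (-0.41) and the ubiquinone methyltransferase COQ5 (0.87). Of 18 genes of the citric acid cycle and pyruvate dehydrogenase 7 fell and 1 rose, and IDH2 stood at 48.8 CPM on average against 125 CPM (log2 change -1.35, adjusted p = 2.46e-25). OGDH (-0.37) and citrate synthase CS (-0.35) fell as well. Of 14 transcriptional regulators tested 4 rose and 3 fell, with PPARGC1B, a coactivator of mitochondrial genes, at -0.91, MYC at -0.35 and the GABP subunit GABPB2 at 0.54.

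Scutellariae Radix, the extract with the next most changed genes, gave no call among the members between its doses. From the low to the high dose 16.3% of all genes were called (7.92% higher, 8.42% lower) and none of the 94 members (edgeR, 4 at an unadjusted p under 0.05, 1 by DESeq2). The smallest p belonged to UQCRC2, at 153, 149 and 149 CPM at the high dose and a mean of 164 ± 6.4 CPM at the low dose (log2 difference -0.12, 95% interval -0.21 to -0.03, adjusted p = 0.0652). UQCRC2 passed without the 4 libraries that stand apart (adjusted p = 0.0245) and without the second low-dose library (0.0347). When only the 6 libraries were fitted 13 members did, 11 of them lower, and 27.5% of all genes. Between the medium and the low dose no member was called (3.35% of all genes, 1 member at an unadjusted p under 0.05, 0 by DESeq2).

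The 2 gingers and Pinelliae Tuber gave no call between the high and the low dose by edgeR or DESeq2. For Zingiberis Rhizoma Recens 1.79% of all genes were called (1.21% higher, 0.584% lower), for Zingiberis Rhizoma 0.915% (0.518% higher, 0.397% lower) and for Pinelliae Tuber 0.0421% (0.0361% higher, 0.00602% lower). At an unadjusted p under 0.05 there were 4, 5 and 0 members. Leaving out the second Zingiberis Rhizoma Recens low library gave 1 call, where 7.72% of all genes were called. The median log2 changes of the 94 genes were -0.14, 0.12 and -0.05. Without the 4 libraries that stand apart they were -0.03, 0.04 and -0.04.

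Zizyphi Fructus gave a case in which 1 library set the values of nearly all members. By edgeR no member was called between its high and low dose (0.0482% of all genes at the adjusted p). At an unadjusted p under 0.05, for which no share of all genes is given, there were 79 of 94. DESeq2 called 59 higher (7.14% of all genes called), and the median log2 change was 0.34. The third high-dose library held 392 CPM of COX8A, against 211 and 248 CPM in the other two, and 186 CPM of ATP5ME against 83.9 and 98.2 CPM. Without that library the median was 0.07 and no member was called, whereas leaving out the first or the second gave 80 and 65 calls (25.9% and 9.50% of all genes). The median coefficient of variation within this group was 29.5% over the members and 14.5% over all genes, and it was 3.34% and 5.40% in wortmannin.

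**Figure D4:**
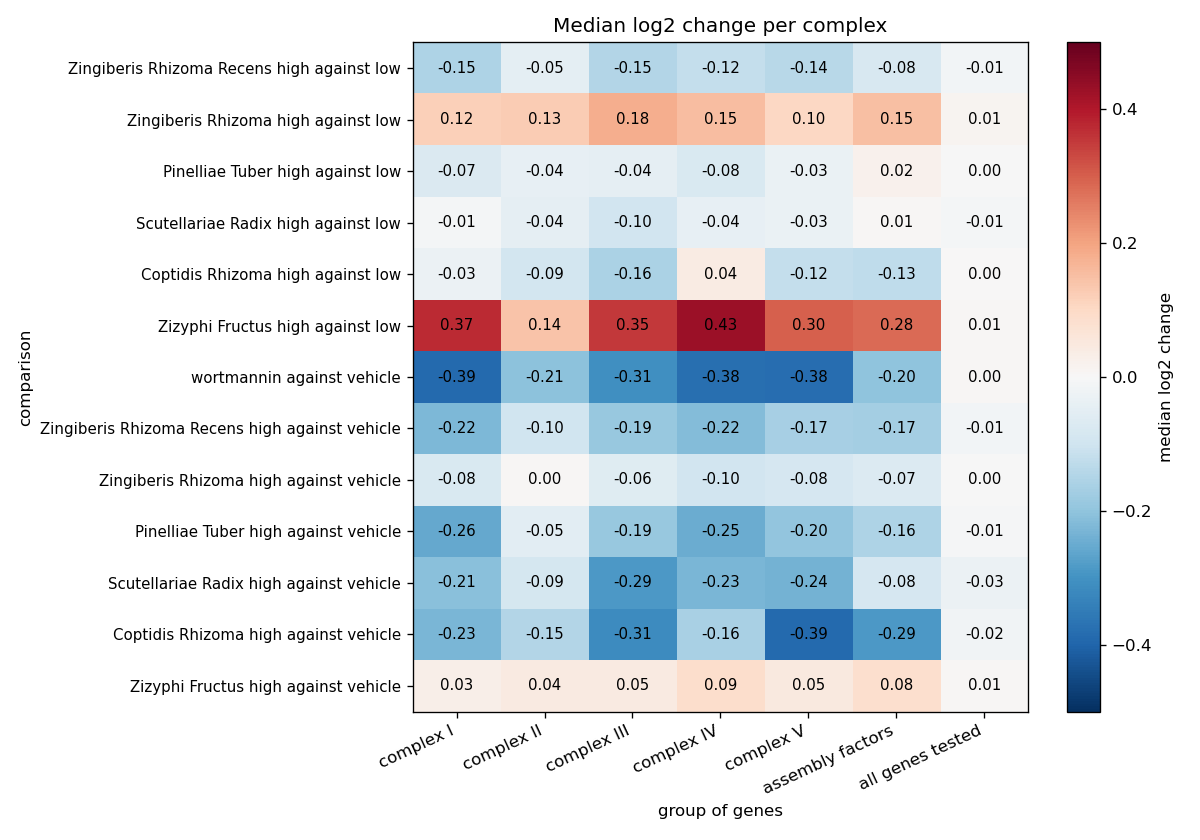
Median log2 change of each complex, the assembly factors and all genes tested, for the high against the low dose of each extract and for wortmannin and the high doses against vehicle. Wortmannin is negative in every complex, from -0.39 in complex I to -0.21 in complex II, and Zizyphi Fructus high against low is positive in every complex, with the third high library included.

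Under wortmannin members of every complex were lower and none was higher. Against vehicle 56 of the 94 genes fell and none rose, where 10.8% of all genes fell and 9.72% rose, and the libraries of the groups did not overlap for 79 members, against 39.0% of all genes. Falls were counted in 21 of 37 genes of complex I, 3 of 4 of complex II, 5 of 9 of complex III, 8 of 13 of complex IV, 15 of 19 of complex V and 4 of 12 assembly factors. The median log2 change was -0.35 over the members and 0.00 over all genes. The count depended on single libraries. It was 16 without the first vehicle library, and 37, 34 and 35 without the first, the second or the third wortmannin library. Over all genes, 20.6% were called in either direction with all libraries, and 12.5% without the first vehicle library (5.88% lower). Without the first, the second or the third wortmannin library 15.2%, 14.5% and 14.9% were. The median over the members was -0.22 without the first vehicle library, and -0.23 without all 4 libraries that stand apart.

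The largest falls were in small subunits. COX8A stood at 338, 249 and 227 CPM in vehicle and at 170, 172 and 175 CPM under wortmannin (log2 change -0.65, SE 0.14, adjusted p = 4.19e-04). UQCR10, a small complex III subunit, stood at 161, 125 and 126 CPM and then at 85.5, 89.8 and 92.5 CPM (-0.62, SE 0.14, adjusted p = 7.65e-04). In both genes each wortmannin library lay under each vehicle library, and the vehicle values outside the first library were also higher. ATP5MF, of the ATP synthase membrane part, had a change of -0.59 (adjusted p = 2.89e-04) and NDUFS6, a zinc-binding complex I subunit, of -0.56 (adjusted p = 0.00204). ATP5MK (-0.63, adjusted p = 0.0161), which helps to hold ATP synthase dimers, and the assembly factor NDUFAF8 (-0.60, adjusted p = 0.0284) lost their calls without the first vehicle library. The change of ATP5MK was then -0.31 (adjusted p = 0.319), and that of NDUFAF8 was -0.58 (adjusted p = 0.0726). ATP5MK also lost its call without the second wortmannin library, and NDUFAF8 without the third vehicle library or any of the wortmannin libraries. The smallest p in complex I belonged to NDUFB8 (-0.51, SE 0.099, adjusted p = 1.62e-04), that in complex V to the central shaft subunit ATP5F1C (-0.33, SE 0.063, adjusted p = 1.22e-04) and that in complex II to SDHA (244 ± 7.0 against 279 ± 11 CPM, -0.19, adjusted p = 0.00247).

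None of the 13 mtDNA-encoded subunits was called under wortmannin (edgeR, 0 at an unadjusted p under 0.05, median log2 difference -0.05), and their share of counts was 8.36% ± 0.36 against 8.12% ± 0.64 in vehicle. Ribosomal protein genes had a median of -0.22, with 9 of 81 lower and none higher, where 10.8% of all genes were lower. The wortmannin libraries, set against the median of all 60 libraries, had a ribosomal protein median of -0.02, -0.01 and -0.01 and a member median of -0.16, -0.15 and -0.14. In them 12, 9 and 12 of the 94 members lay above their own median. Some extract libraries had as few. The first Zizyphi Fructus low library had 3 (member median -0.15, ribosomal protein median -0.15). The third Zingiberis Rhizoma medium library had 8 (-0.07 and -0.11), and the second Pinelliae Tuber high library 9 (-0.12 and -0.14). Of the surrounding lists, 12 of 39 other assembly factors, 6 of 16 carriers, 9 of 18 citric acid cycle genes and 2 of 14 regulators fell and none rose. They included the complex IV factors COX20 (-0.39), TACO1 (-0.39) and SCO1 (-0.22), the heme lyase HCCS (-0.37), SUCLG1 (-0.36), and the transcription factor NRF1 (-0.26) with the GABP subunit GABPB1 (-0.19). NRF1 and GABPB1 lost their calls without the first vehicle library, without the second wortmannin library, or with no filter on low counts. The list counts are from the fit with all libraries and were not made without the first vehicle library.

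The members are mostly short genes. The median coding length was 417 bp over the 94 and 1377 bp over 12916 tested genes with a principal coding transcript, and 70 members (74.5%) were at most 600 bp long, against 13.5% of those genes. The longest member was ATP5MF-PTCD1 at 2247 bp. Under wortmannin the 70 short members had a median of -0.39 with 43 called lower, and the 24 longer ones a median of -0.23 with 13 called lower. Across the 94 members, which share the same 6 libraries, log2 change and log2 coding length had r = 0.53 and rho = 0.55. The part of length in these results was not tested. Over all tested genes of at most 600 bp the median under wortmannin was -0.15, and over the longer ones 0.02. The slope was not particular to wortmannin. At the 12 medium and low doses against vehicle r lay between 0.27 and 0.62. For the high doses against vehicle it was -0.15 in Zizyphi Fructus, 0.06 in Coptidis Rhizoma and 0.48 to 0.59 in the other extracts. All these comparisons share the vehicle libraries. In Zizyphi Fructus high against low the slope was opposite to that under wortmannin (r = -0.62), with medians of 0.38 for the short and 0.24 for the longer members. Between the Coptidis doses length and change had r = -0.13 and rho = 0.01, with medians of -0.09 in both classes, and the 5 genes called higher were all short while the 15 called lower were 8 short and 7 longer genes.

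**Figure D5:**
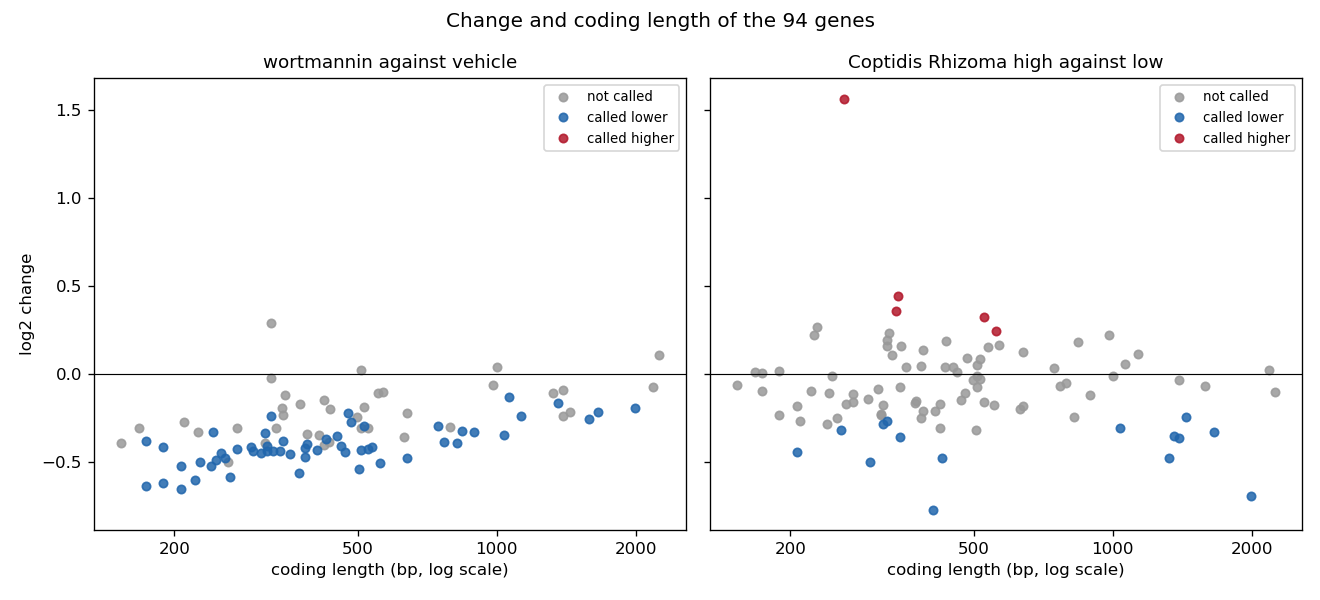
Log2 change of each of the 94 genes against its coding length (bp, log scale), under wortmannin against vehicle (left) and in Coptidis Rhizoma high against low (right), coloured by call. On the left short genes lie lower (r = 0.53), and on the right called genes are spread over the lengths (r = -0.13).

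Wortmannin against vehicle and Coptidis Rhizoma high against low share no library. Of the 15 genes lower between the Coptidis doses, 11 (73.3%) were among the 56 lower under wortmannin, which is 19.6% of that list. Of all 94 members, 59.6% were lower under wortmannin. Without the first vehicle library 16 members (17.0%) were lower under wortmannin, where 5.88% of all genes were. Of the 15 genes, 5 (33.3%) were among them, which is 31.2% of the 16. SDHA, ATP5MC1, ATP5MC3, ATP5ME, ATP5F1A, ATP5PF, ATP5IF1, UQCRC2, COX6B1, NDUFA2 and NDUFAF5 were in both with all libraries, while NDUFB8 and NDUFA7 were lower under wortmannin and higher at the high Coptidis dose. The sizes differed from gene to gene: SDHA had -0.69 between the Coptidis doses and -0.19 under wortmannin, and COX6B1 -0.32 and -0.48, the latter lost without the first vehicle library (adjusted p = 0.103).

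Against vehicle, the high dose of Coptidis Rhizoma gave 46 members lower and 3 higher, where 53.8% of all genes were called, 27.1% lower and 26.6% higher. ATP5MC1 (-1.06, SE 0.088, adjusted p = 9.82e-15), NDUFA2 (-0.76) and SDHA (-0.74, SE 0.048, adjusted p = 8.32e-19) had the largest falls, and NDUFA4L2 rose by 1.65 (SE 0.23, adjusted p = 4.19e-08). COX7A2L (0.29, adjusted p = 0.0182) and SDHAF4 (0.45, adjusted p = 0.0484) passed narrowly, and each lost its call without the third vehicle or the first Coptidis high library. Without the first vehicle library 28 members were called, 23 lower and 5 higher, and the shares of all genes above are from the fit with all libraries. Scutellariae Radix high against vehicle gave 9 members lower and none higher, where 20.3% of all genes were called and 10.6% were lower. Libraries did not overlap for 52 members, against 38.4% of all genes. The largest of the called changes were those of NDUFA2 (-0.44), UQCR11 (-0.38) and SDHAF3 (-0.34), at adjusted p-values of 0.0415, 0.0423 and 0.0210. Without the first vehicle library these were -0.24, -0.19 and -0.22 and did not pass (adjusted p = 0.382, 0.415 and 0.213). NDUFA2 and UQCR11 also lost their calls when any 1 of the 3 Scutellariae libraries was left out, and SDHAF3 without the second. The number of members called was 1 without the first vehicle library and 20 without the third. It was 3, 3 and 2 without the first, the second or the third Scutellariae library. The share of 20.3% of all genes is from the fit with all libraries.

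The high doses of Zingiberis Rhizoma Recens, Zingiberis Rhizoma, Pinelliae Tuber and Zizyphi Fructus gave no call against vehicle by edgeR, where 2.08%, 0.789%, 0.187% and 0.0181% of all genes were called (0.771% lower for Zingiberis Rhizoma Recens and 0.0602% lower for Pinelliae Tuber). At an unadjusted p under 0.05 there were 31, 1, 39 and 1 members. The shares of all genes above are at the adjusted p and cannot be set against these counts. DESeq2 called 1, 0, 1 and 0. Leaving out the third vehicle library gave 2 for Zingiberis Rhizoma Recens (2.55% of all genes). Leaving out the first Pinelliae high library gave 1 for Pinelliae Tuber. All these comparisons share the vehicle libraries. At the 12 medium and low doses the median of the 94 genes against vehicle lay between -0.29 and -0.07. Without the first vehicle library, which all 12 share, it lay between -0.16 and 0.02, with Zingiberis Rhizoma Recens low above 0. With all libraries 1 call was made, at the medium Coptidis dose (6.32% of all genes). It was lost without the first vehicle library, without the first or the third medium Coptidis library, and without the 4 libraries that stand apart.

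The change from low to high was compared between extracts by an interaction term. Coptidis Rhizoma and Zizyphi Fructus, which share a code, differed in 51 members, 50 lower and 1 higher in Coptidis (21.1% and 20.4% of all genes). SDHA differed by -0.79 (SE 0.067, adjusted p = 4.70e-14) and ATP5MC1 by -1.02 (SE 0.12, adjusted p = 1.78e-09). Without the third Zizyphi high library the count was 23, with 21 lower, and SDHA and ATP5MC1 differed by -0.72 and -0.88. Coptidis Rhizoma and Scutellariae Radix differed in 12 members, 9 lower and 3 higher (17.8% and 20.9% of all genes), with SDHA at -0.62 and ATP5MC1 at -0.72. Scutellariae Radix and Pinelliae Tuber differed in no member by edgeR or DESeq2 (6.32% of all genes, no member at an unadjusted p under 0.05).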

How the data were processed

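RNA-seq of 60 HT29 libraries was used, in groups taken from the sample labels. The authors deposited a table of expected counts of genes. Per the submitters' processing notes, the tools were RSEM 1.3.3, STAR 2.7.3a, FastQC 0.11.9 and Trim Galore 0.6.5, and the build was GRCh38. The annotation release is not given in the sources used here. RSEM shares reads between near-identical copies, so genes with pseudogenes are less certain. A further 210 columns belong to other samples and were not used. Of the values, 8.75% were not whole, and all were rounded.

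Genes were filtered with filterByExpr (16608 kept), scaled by TMM and fitted over all 20 groups with edgeR 4.0.16 (limma 3.58.1, R 4.3.3) by the robust quasi-likelihood test, without a block. Adjusted p-values are Benjamini-Hochberg values over all genes tested in a comparison, and calls are at 0.05. Shares of all genes called are at the adjusted p, and none is given for counts at an unadjusted p. Standard errors and intervals come from the same fit, and CPM are on TMM-scaled library sizes. The steps were tested on simulated data. Alternatives were DESeq2 (1.42.0), its size factors, no filter, fits of only the libraries compared, a replicate block, and leaving out each library or the 4 that stand apart. Gene types, positions and coding lengths are from GENCODE 29 on GRCh38, and promoters from RefSeq. The members and lists were chosen with earlier results of these data known, and the split by coding length, the motifs and the printed promoters after values were seen. Named genes are, among called members whose libraries do not overlap, the 6 largest changes in each direction (3 outside Coptidis Rhizoma and Scutellariae Radix high against low and wortmannin), the smallest p of each complex in those 3 comparisons, the 4 smallest p of each interaction, paralogue groups, the most abundant member, those next to the CPM limit, and up to 3 called genes of each list. Other genes named were chosen after their values were seen. The values of 1 member are not reported here.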

Additional observations from a re-analysis of the deposited data

Results flagged for a closer look

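The change from the low to the high dose differed between extracts by the interaction test of edgeR. Between Coptidis Rhizoma and Zizyphi Fructus 51 members differed, where 41.4% of all genes did. The difference in log2 change was -0.79 for SDHA, -0.52 for ATP5F1A and -1.02 for ATP5MC1, where a negative value means lower in Coptidis Rhizoma. Without the third Zizyphi high library 23 members differed (39.2% of all genes), and the values were -0.72, -0.38 and -0.88. Between Coptidis Rhizoma and Scutellariae Radix 12 members differed, where 38.8% of all genes did, with -0.52 for NDUFAF7, -0.62 for SDHA and -0.72 for ATP5MC1.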

How the results depend on the processing

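None of the 97 results for single genes reversed. The median of the 94 genes at Zingiberis Rhizoma Recens low against vehicle did change sign. It was -0.07 with all libraries and 0.02 without the first vehicle library. Without the filter on low counts, more genes were tested. Members called high against low were then 8 for Zingiberis Rhizoma Recens (1.61% of all genes) and 4 for Zingiberis Rhizoma (1.26%). They were 2 for Scutellariae Radix (6.61%), 41 for Coptidis Rhizoma (24.7%) and 72 for Zizyphi Fructus (5.71%). Against vehicle without the filter they were 36 for Zingiberis Rhizoma Recens (3.21%), 39 for Pinelliae Tuber (1.76%) and 47 for Scutellariae Radix. Summed over the 12 medium and low doses they were 351, and 22 for the difference between Coptidis Rhizoma and Scutellariae Radix. DESeq2's Wald test gave 1 for Scutellariae Radix (16.0% of all genes) and 59 for Zizyphi Fructus (7.14%) high against low. Against vehicle it gave 1 each for Zingiberis Rhizoma Recens (3.30%) and Pinelliae Tuber, and 11 over the 12 doses. With only the libraries compared, the counts were 13 for Scutellariae Radix (27.5% of all genes) and 48 for Coptidis Rhizoma (59.2%) high against low. They were 1 each for their medium against low, 19 for Coptidis against Zizyphi, 30 for Coptidis against Scutellariae, and 0 over the 12 doses. Without the 4 libraries that stand apart, they were 4 and 48 for Scutellariae and Coptidis high against low (21.7% and 57.3% of all genes). They were 1 and 4 for Pinelliae and Scutellariae against vehicle, and 27 for Coptidis against Scutellariae. For the other counts of this section no share of all genes is given. The causes were not tested.

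Leaving out 1 library gave, high against low, 0 to 1 calls for Zingiberis Rhizoma Recens and for Scutellariae Radix. It gave 17 to 22 for Coptidis Rhizoma and 0 to 80 for Zizyphi Fructus. The share of all genes at the highest count was 7.72% for Zingiberis Rhizoma Recens, 12.4% for Scutellariae Radix and 25.9% for Zizyphi Fructus. Against vehicle the range of calls was 16 to 64 for wortmannin (12.5% of all genes at 16), 0 to 2 for Zingiberis Rhizoma Recens and 0 to 1 for Pinelliae Tuber. The range was 1 to 20 for Scutellariae Radix, 28 to 56 for Coptidis Rhizoma and 0 to 10 over the 12 doses. It was 23 to 69 for Coptidis against Zizyphi. Of 97 results for single genes 24 lost their call in at least 1 alternative and 6 gained it. The medians per complex without the 4 libraries and the overlap without the first vehicle library were added after seeing the data.

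With the replicate number as a block, 54 members were called for wortmannin (20.5% of all genes) and 21 for Coptidis high against low (52.4%). There were 8 for Scutellariae and 49 for Coptidis high against vehicle, 52 for Coptidis against Zizyphi and 12 for Coptidis against Scutellariae. The block moved no count by over 1.5 times and changed the call or direction of none of the 97 results for single genes. Same-numbered libraries share only a number: their deviations correlated between -0.37 and 0.34, and all pairs passed 0.1 in 1 of 27 comparisons.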

Other observations

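Between the doses of Scutellariae Radix, where no member was called, genes around the chain were. From low to high, 4 of 18 genes of the citric acid cycle and pyruvate dehydrogenase rose and 2 fell, among them OGDH (log2 change 0.33), IDH3A (0.24) and IDH2 (-0.30). CYCS, which encodes cytochrome c, rose by 0.25 and was the 1 gene called among 16 carriers. Of 39 other assembly factors 2 rose, BCS1L (0.22) and COA7 (0.18), and 2 fell, among them COA5 (-0.29). Of 14 transcriptional regulators 4 rose and 1 fell, with HIF1A at 0.21, PPRC1 at 0.20 and MYC at 0.19. All are calls by edgeR over all genes, of which 16.3% were called. Several calls were lost without single libraries. PPRC1 lost its call when any 1 of the 6 libraries was left out (adjusted p up to 0.123), and CYCS without the first or the third high-dose or the first or the second low-dose library (up to 0.134). BCS1L and COA7 lost theirs without the first high-dose or the third low-dose library or the filter on low counts, and COA5 without the third high-dose or the second or the third low-dose library.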
